A study of Homo sapiens with 8 samples.

Results

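Forkhead (FOX) transcription factors were compared between mock arrays and arrays labelled CFC1 of NGP, an established human neuroblastoma line. Members were the probes whose annotated symbol is FOX with a letter from A to S and a digit, which gave 61 probes of 44 genes among 50599 probes and 21524 named genes. The symbols of 3 antisense transcripts and of FOXL2NB, a neighbour of FOXL2, match the letters but were set aside. Both groups were NGP cultures in medium with serum, transduced by lentivirus and taken through puromycin selection. The mock group (n = 4 arrays) received the mock construct and the second group (n = 4 arrays) CFC1 cDNA. CFC1 encodes Cryptic, a co-receptor for Nodal and related TGF-beta ligands. Separate cultures behind the arrays of a group are not stated in the labels, so a p-value here is set against array-to-array spread alone, and that spread could be technical.

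Forkhead factors share a winged-helix DNA-binding domain and are named by letter for subfamilies of alike sequence. They set cell identity in many tissues: FOXF and FOXL1 in the mesenchyme around the gut, FOXC in mesenchyme and vessels, FOXD3 in the neural crest from which neuroblastoma arises. Others act in many cell types, as the FOXO factors do downstream of insulin and AKT and FOXM1 does in the G2 phase of dividing cells. FOXH1 is the DNA-binding partner of SMAD proteins when Nodal signals through CFC1 and its relatives.

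Every value was read as the log2 of a one-colour Agilent signal relative to a baseline for each probe. Neither the baseline nor the base of the logarithm is stated. With natural logarithms each difference in log2 units would be larger by one constant factor, and no adjusted p would change. A value of 0 is that baseline, a value compares arrays for 1 gene, and it gives no level of expression. Differences are arrays labelled CFC1 minus mock arrays, as the mean over a gene's probes. A gene is called at an adjusted p below 0.05 in limma, with Benjamini-Hochberg adjustment over all 21524 genes. The table carries no background flags, so how close a dim group lay to background is unknown, and the presence of neuroblastoma markers could not be read. Of 10 such markers measured, 7 fell and 1, MYCN, rose by 0.16, a rise not called after quantile normalization or with arrays centred on the median. The probe of CFC1 itself averaged 0.42 ± 0.50 (SD, n = 4) in mock arrays and -0.38 ± 0.34 (SD, n = 4) in the second group. That difference of -0.80 had an adjusted p of 0.0398 in limma and p = 0.0571 in an exact two-sided permutation test, where 0.0286 is the smallest possible. The group is therefore called the arrays labelled CFC1, and each direction rests on the label.

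More forkhead genes fell than rose. Of the 44 genes, 27 were called (61.4%) against a background of 57.9% of all genes. Of these, 18 fell, which is 40.9% against 28.2% of all genes, and 9 rose, which is 20.5% against 29.7%. The groups did not overlap in 25 of the 44, 56.8% against 56.5% of all genes. The median difference was -0.14 over the forkhead genes and -0.09 over all genes. The share of called genes was thus near the background, and the split by direction is a description with no test. The shares over all genes, 28.2% lower and 29.7% higher, are also the background for each list and neighbour count below. Calls of at least 1 log2 unit were made for 11 of 44 forkhead genes, against 4021 of 21524 genes in all (18.7%). By that much 10 of the 44 fell and 1 rose, against 1930 (8.97%) and 2091 (9.71%) of the 21524.

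**Figure D1:**
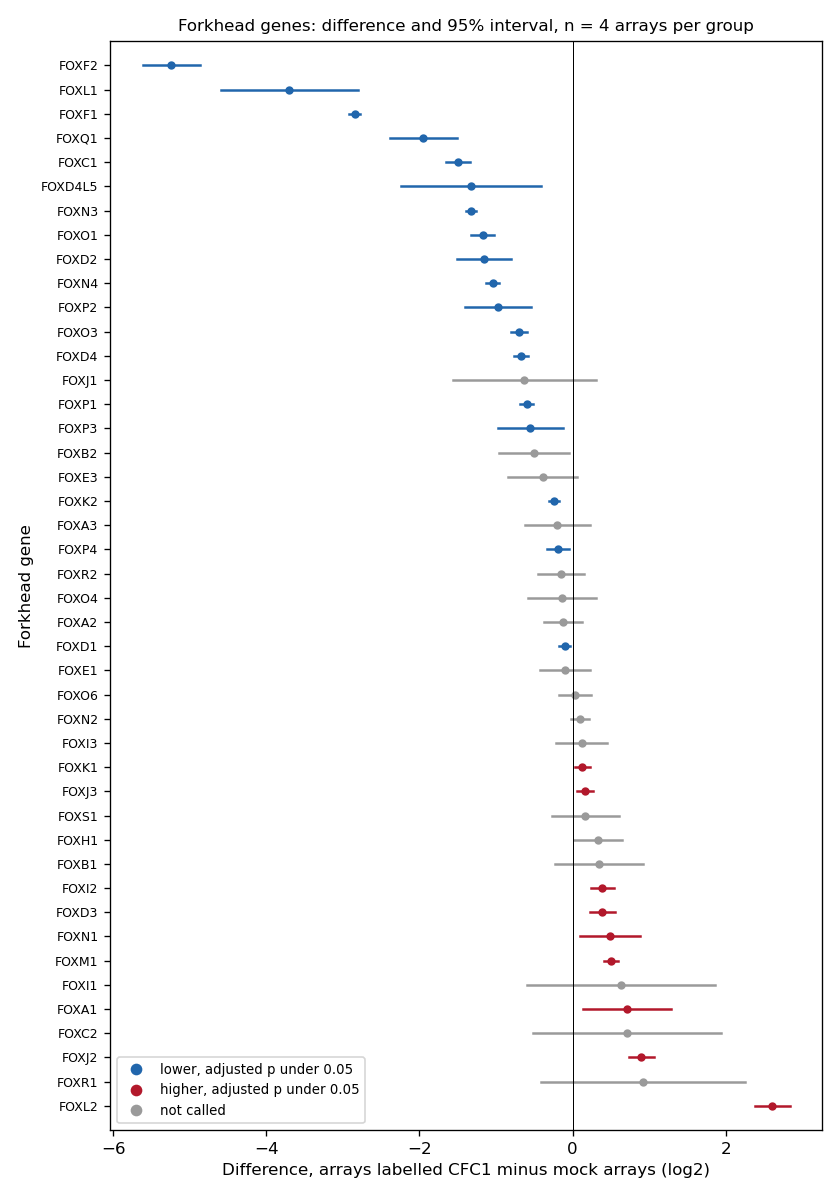
Difference between arrays labelled CFC1 and mock arrays (log2, x axis) for each of 44 forkhead genes (y axis), with points for the fitted difference and lines for its 95% interval, n = 4 arrays per group. FOXF2 at -5.24, FOXL1 at -3.70 and FOXF1 at -2.85 stand at the lower end, and FOXL2 at 2.61 is the only gene above 1.

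The mesenchymal forkhead genes held the largest falls. FOXF2, which patterns gut and palate mesenchyme, read 5.53, 5.496, 5.57 and 5.58 on mock arrays 1 to 4 and 0.02, 0.67, 0.00 and 0.53 on arrays labelled CFC1. All mock arrays lay within 0.1 of each other and far above the second group. The difference was -5.24 (SE 0.160, 95% interval -5.62 to -4.86, adjusted p = 8.45e-08 in limma). FOXF1, its paralogue in lung and gut mesenchyme, read 2.88, 2.86, 2.93 and 2.89 on mock arrays and 0.04, 0.06, 0.06 and 0.00 on arrays labelled CFC1. The groups were each tight, with an SD of 0.030 and 0.028, and the difference of -2.85 (SE 0.032) had the smallest adjusted p of any forkhead gene, 1.17e-09 in limma. FOXL1, a factor of the mesenchyme beneath gut epithelium, read 4.14, 3.99, 4.21 and 4.09 on mock arrays and -0.56, 1.19, 1.01 and 0.00 on arrays labelled CFC1. Here the second group was scattered, with an SD of 0.832 against 0.094, and still far below the mock arrays. The difference was -3.70 (SE 0.382, adjusted p = 7.12e-05 in limma).

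FOXQ1 and FOXC1 fell as well. FOXQ1, an epithelial and hair follicle factor that represses CDH1 in tumour cells, read 1.85, 1.98, 1.67 and 1.12 on mock arrays and -0.23, -0.46, -0.39 and -0.10 on arrays labelled CFC1. Mock array 4 was the lowest of its group and still above all arrays of the other. Its difference was -1.95 (SE 0.188, adjusted p = 4.82e-05 in limma). FOXC1, needed in eye, skull and vessel mesenchyme, read 0.96, 1.07, 1.06 and 0.97 on mock arrays and -0.37, -0.45, -0.44 and -0.64 on arrays labelled CFC1. Both groups were narrow and did not overlap, with a difference of -1.49 (SE 0.065, adjusted p = 5.48e-07 in limma). FOXC2, the lymphatic vessel paralogue of FOXC1, was not called. Its mock arrays lay between -0.46 and 0.00, but the arrays labelled CFC1 read -0.46, 2.03, 0.55 and -0.25. That scatter left a difference of 0.72 with a 95% interval from -0.51 to 1.95 (adjusted p = 0.293 in limma), so its sign is open. The interval does not reach the falls of FOXF1 (-2.85) and FOXL1 (-3.70). FOXS1, known from vessel pericytes and sensory neurons, stood at 0.17 (adjusted p = 0.471 in limma).

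**Figure D2:**
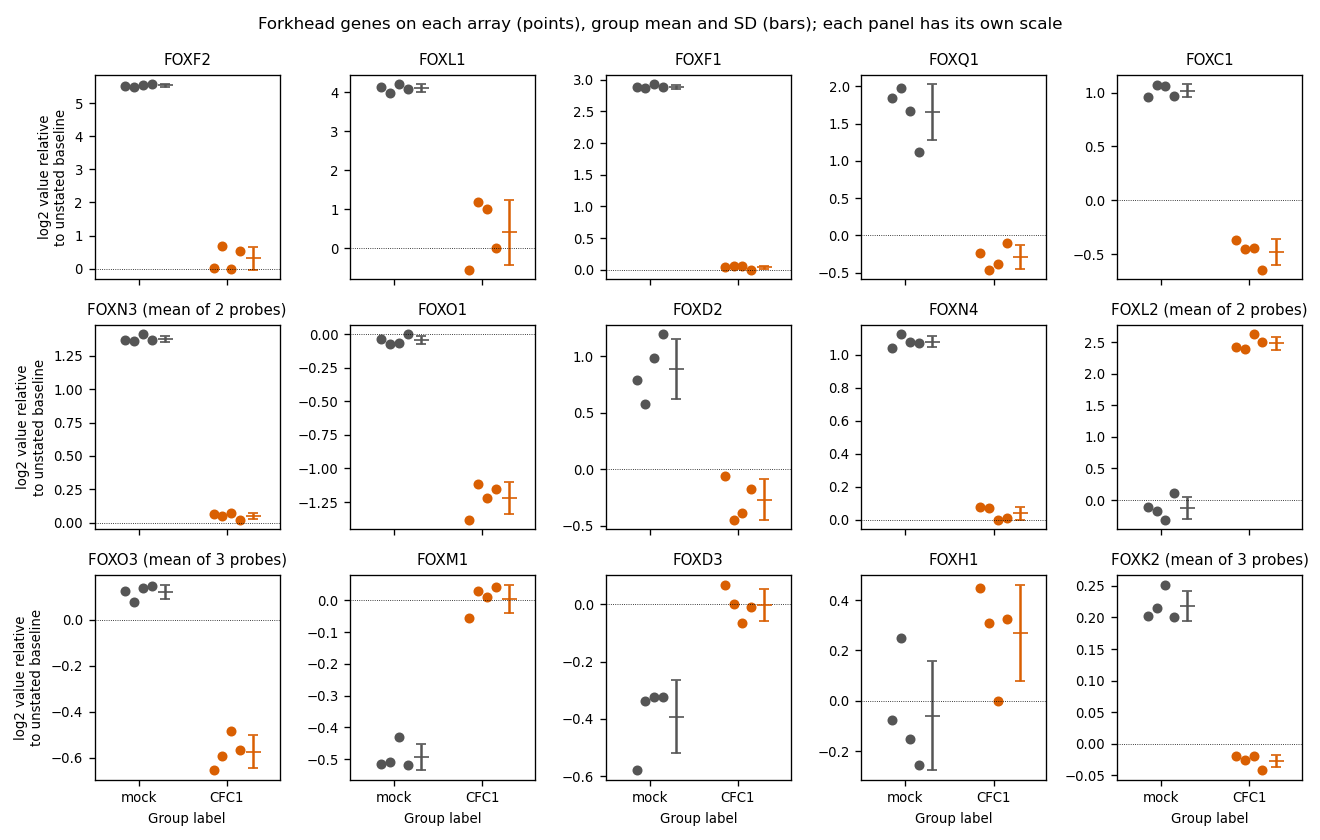
log2 value relative to the unstated baseline (y axis, own scale in each panel) of 15 forkhead genes on the 4 mock arrays and 4 arrays labelled CFC1 (points), with the group mean and SD beside them. The mock arrays of FOXF2 sit between 5.496 and 5.58 and those labelled CFC1 between 0.00 and 0.67, while the groups of FOXH1 overlap.

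Most markers of mesenchymal cells fell beside these genes. Of 10 fibroblast and mural markers measured, 8 fell (80.0% against 28.2% of all genes), with a list median of -0.90. THY1 rose by 0.34, and the collagen chain COL1A2 stood at -0.055 without a call (adjusted p = 0.731 in limma). RGS5, a pericyte regulator of G protein signalling, stood at -3.83, the growth factor receptor PDGFRA at -2.78, and the collagen chains COL3A1 and COL1A1 at -1.88 and -1.44. The mean of the 10 markers ran from 1.05 to 1.11 over mock arrays and from -0.18 to -0.11 over arrays labelled CFC1. Their part in the forkhead falls was not tested. In bulk RNA, fewer cells of a type and less RNA per cell cannot be told apart.

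5 of these genes lie in 2 chromosomal clusters. In RefSeq order on chromosome 6, FOXQ1, FOXF2 and FOXC1 follow each other, with 1 measured uncharacterised transcript between the last pair, and all 3 fell. The 250 bases before the start sites of these 3 genes, and of FOXL2 as the largest rise, are shown from RefSeq (GRCh38.p14). Capitals mark matches to the CCAAT box (letters CCAAT) and the GC box (letters GGGCGG), searched on both strands.
FOXQ1 chr6:1311848-1312097, plus strand: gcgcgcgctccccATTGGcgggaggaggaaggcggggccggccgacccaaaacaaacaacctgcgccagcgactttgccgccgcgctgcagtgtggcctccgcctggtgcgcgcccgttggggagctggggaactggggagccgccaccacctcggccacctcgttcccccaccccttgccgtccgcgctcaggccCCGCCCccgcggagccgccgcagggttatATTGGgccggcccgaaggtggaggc
FOXF2 chr6:1389326-1389575, plus strand: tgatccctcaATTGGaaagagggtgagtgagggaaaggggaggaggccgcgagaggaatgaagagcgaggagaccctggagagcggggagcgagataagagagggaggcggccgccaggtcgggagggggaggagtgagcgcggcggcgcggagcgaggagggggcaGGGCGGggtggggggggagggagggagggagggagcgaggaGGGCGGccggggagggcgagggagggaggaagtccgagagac
FOXC1 chr6:1609665-1609914, plus strand: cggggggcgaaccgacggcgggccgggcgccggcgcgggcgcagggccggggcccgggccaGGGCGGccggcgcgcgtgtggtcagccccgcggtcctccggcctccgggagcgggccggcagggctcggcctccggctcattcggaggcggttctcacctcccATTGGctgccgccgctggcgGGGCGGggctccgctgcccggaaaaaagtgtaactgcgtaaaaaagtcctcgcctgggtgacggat
FOXL2 chr3:138947138-138947387, minus strand: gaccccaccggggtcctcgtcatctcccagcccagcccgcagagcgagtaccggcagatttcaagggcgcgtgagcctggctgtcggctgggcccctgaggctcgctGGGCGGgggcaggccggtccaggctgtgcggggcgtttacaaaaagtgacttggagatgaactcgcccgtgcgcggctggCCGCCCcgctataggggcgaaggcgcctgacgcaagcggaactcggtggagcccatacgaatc
The CCAAT box matched in all 3 windows of chromosome 6 and not in that of FOXL2. It lay in 10 of the 45 windows of the 34 forkhead genes with an entry (22.2%), against 32.0% of 35116 RefSeq promoter windows. Among other called genes, FOXO1 fell with 1 match, FOXD2, FOXN3 and FOXN4 fell with 0, and FOXN1, called higher, had 1. A link of the box to direction was not tested. The GC box matched in all 4 windows shown and is held by 42.6% of all windows. It lay in 29 of the 45 forkhead windows (64.4%), whose median GC content was 67.2% against 58.0% over all windows. The forkhead core (letters TGTTTAC) was in none of the 4 windows, in 1 of the 45 and in 2.98% of all. These matches are letters in a window and no measured sites.

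The genes beside the chromosome 6 cluster did not all move with it. Of the 9 measured neighbours shown, 2 fell and 1 rose, where 28.2% of all genes fell and 29.7% rose. EXOC2, an exocyst subunit, fell by 0.76 and HUS1B, a checkpoint clamp relative, by 1.44, while DUSP22, a phosphatase, rose by 2.004. GMDS, the sugar-nucleotide enzyme next to FOXC1, stood at 0.05 and was not called (adjusted p = 0.918 in limma). On chromosome 16 the order is FOXF1, FOXC2, FOXL1. Of 10 measured neighbours there 6 fell, where 28.2% of all genes did, and the others were not called. Among those that fell, the groups overlapped for LINC01081 (-0.97, adjusted p = 0.049 in limma) and C16orf95 (-0.45, adjusted p = 0.0321 in limma). FENDRR, the long noncoding RNA next to FOXF1, read 1.08, 0.997, 1.01 and 0.99 on mock arrays and -0.26, -0.40, -0.10 and -0.50 on arrays labelled CFC1. Its groups did not overlap, and the difference was -1.34 (SE 0.086, adjusted p = 4.54e-06 in limma) as the mean of 10 probes that ran from -3.14 to -0.15. LINC01082, an uncharacterised RNA on the same side, fell by 3.02. MTHFSD, between FOXF1 and FOXC2, fell by 0.31. The neighbours outside the fixed list were chosen by their place, 4 measured genes to each side.

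**Figure D3:**
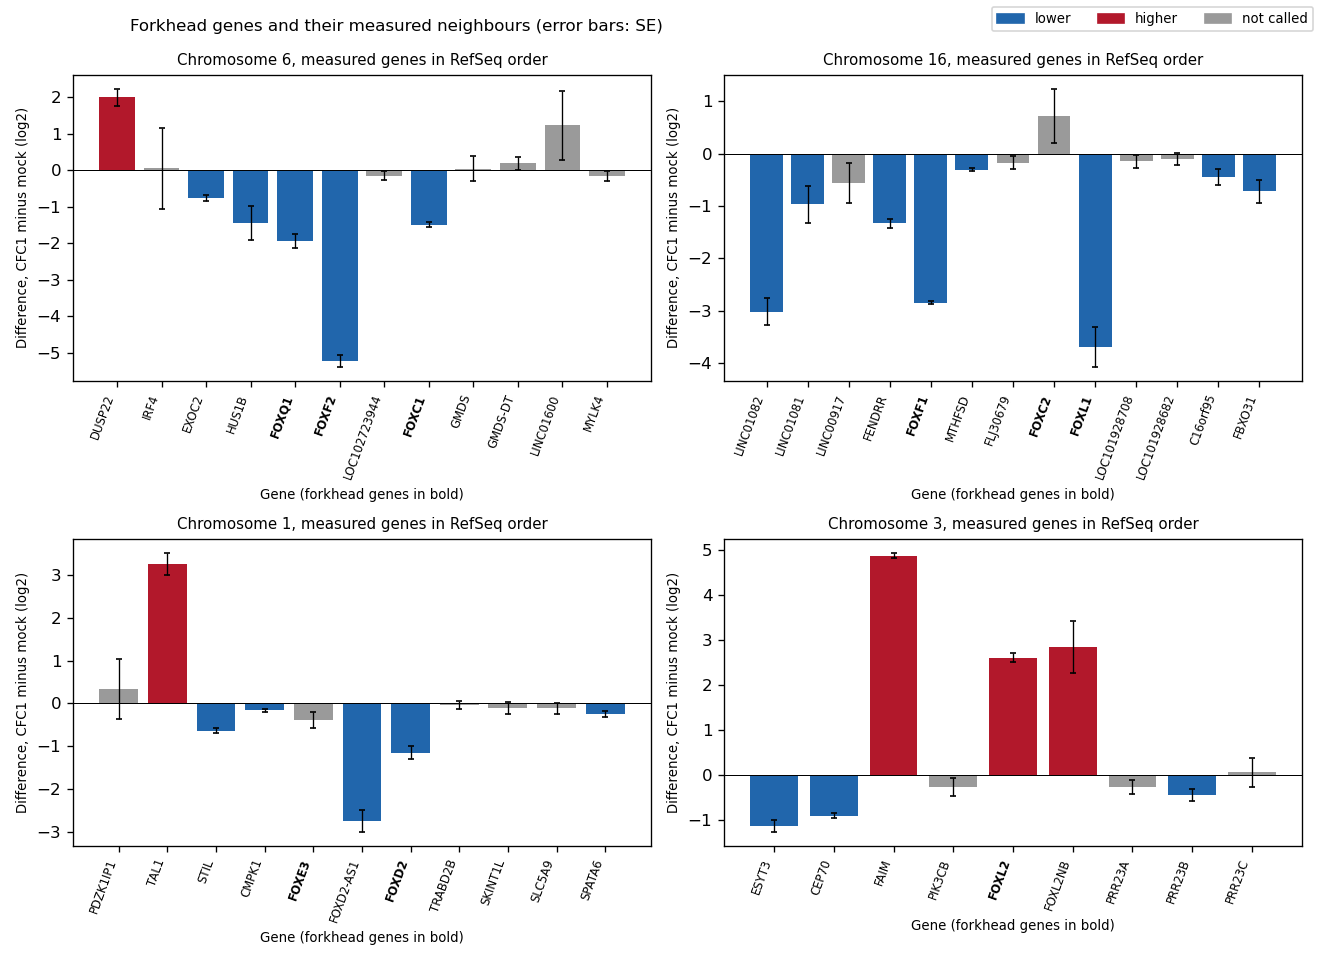
Difference between arrays labelled CFC1 and mock arrays (log2, y axis; error bars SE) for forkhead genes (bold) and measured neighbours in RefSeq order (x axis) on chromosomes 6, 16, 1 and 3. The 3 forkhead genes of chromosome 6 all fell, and on chromosome 16 FOXF1 and FOXL1 fell while FOXC2, which lies between them, stood at 0.72 and was not called.

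Lists around these factors moved in mixed ways. Of 17 measured genes of the hedgehog axis that works with FOXF and FOXL1, 5 rose and 6 fell, with a median of -0.29. BMP4, a ligand made in gut mesenchyme, fell by 2.36, PDGFRA by 2.78 and the gut mesenchyme factor NKX3-2 by 1.46, while GLI1, a hedgehog target and effector, rose by 1.46. Of 14 measured genes listed as targets of FOXC factors or FOXQ1, 9 fell (64.3% against 28.2% of all genes). The median was -1.42, and 1 rose. FGF19, a growth factor, fell by 3.62, DKK1, a WNT antagonist, by 3.38, TEK, the angiopoietin receptor, by 2.89, and TGFBR2, a TGF-beta receptor, by 2.63. CXCR4, a chemokine receptor of the list, rose by 1.75. That list, like every list here, was written with earlier results of these data known, so no list count is independent evidence.

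FOXL2 was the forkhead gene with the largest rise, and that rise came from 1 of its 2 probes. FOXL2 is a factor of ovarian granulosa cells and the eyelid. Its first probe read -0.05, -0.12, -0.33 and 0.07 on mock arrays and 5.07, 5.14, 5.19 and 5.12 on arrays labelled CFC1. These groups lay far apart, with a difference of 5.24 (SE 0.087, adjusted p = 1.1e-08 in limma over 50599 probes). The second probe stayed between -0.35 and 0.15 on all 8 arrays, with a difference of -0.02 (SE 0.125, adjusted p = 0.92 in limma). The gene mean of 2.61 (SE 0.096) therefore describes neither probe. FOXL2NB, the next measured gene on chromosome 3, read -0.38, 1.601, -0.47 and 1.79 on mock arrays and 3.10, 3.75, 3.48 and 3.63 on arrays labelled CFC1. The mock arrays were split but all lower, and the difference was 2.85 (SE 0.574, adjusted p = 0.0032 in limma). Of the 8 measured neighbours of FOXL2, 2 rose and 3 fell, where 29.7% of all genes rose and 28.2% fell. The other that rose was FAIM, an inhibitor of apoptosis, at 4.88.

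Probes of 1 gene also differed elsewhere. Of the 61 forkhead probes, 32 were called (52.5%) against 42.1% of all probes, and of 12 genes with several probes FOXK2 and FOXP1 had probes called in opposite directions. FOXK2 and FOXK1 are broadly expressed repressors of autophagy genes. One FOXK2 probe read 1.47, 1.48, 1.48 and 1.35 on mock arrays and -0.03, 0.02, -0.03 and -0.12 on arrays labelled CFC1, a difference of -1.48 (adjusted p = 3.65e-07 in limma over probes). The other 2 probes rose by 0.25 and 0.50. The gene mean of -0.25 (SE 0.028, adjusted p = 0.000145 in limma) turned to 0.27 with the median of the probes, and its call was lost after quantile normalization (-0.12, adjusted p = 0.0828) and with arrays centred on the median (-0.20, adjusted p = 0.0756). No single direction can be given for FOXK2. FOXK1 stood at 0.13 (adjusted p = 0.0369 in limma), a call lost without any single array other than CFC1 replicate 2 (0.107 to 0.134, adjusted p from 0.0629 to 0.0942). It was also lost with arrays centred on the median (0.17, adjusted p = 0.118). Of 10 FOXK partners measured, 4 rose and 5 fell, none by 1 log2 unit, with HCFC1, a transcriptional co-regulator, at 0.46 and SIN3B, a corepressor scaffold, at -0.41. Only 2 of these partners fell after quantile normalization, 2 with arrays centred on the median and 3 with arrays set to E1A control spots.

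**Figure D4:**
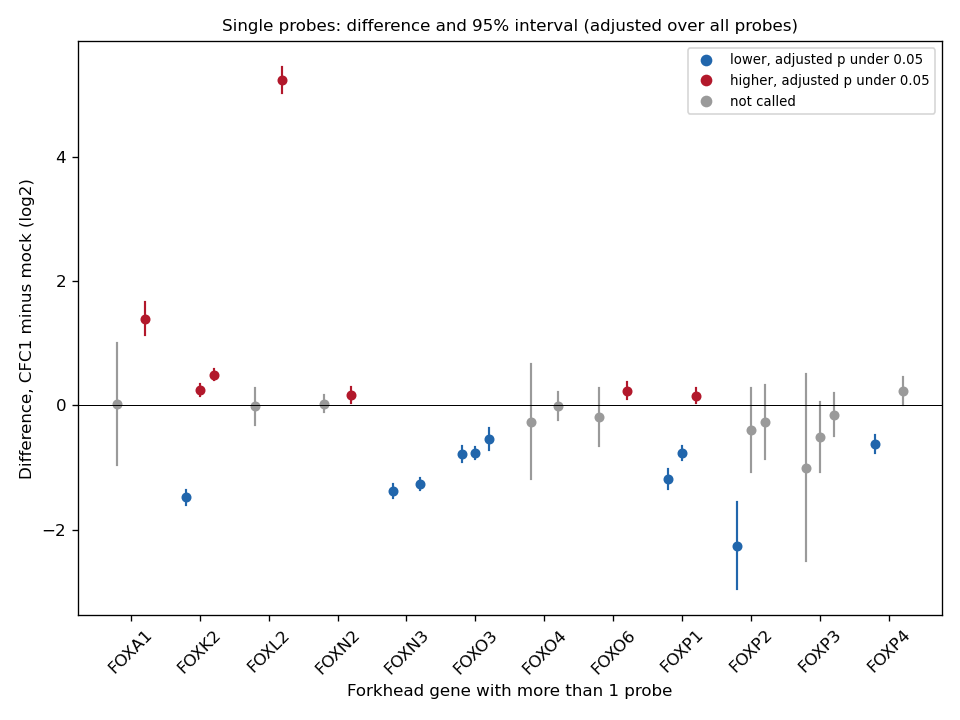
Difference between arrays labelled CFC1 and mock arrays (log2, y axis) of single probes, with 95% intervals, for the 12 forkhead genes with more than 1 probe (x axis). The FOXL2 probes stand at -0.02 and 5.24, and those of FOXK2 run from -1.48 to 0.50.

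The FOXP genes, whose proteins are transcriptional repressors that act in neural, lung and immune development, were all lower as gene means, but not in every probe. FOXP1 had probes at -1.18, -0.77 and 0.16, each called, and a mean of -0.60 (SE 0.037, adjusted p = 3.86e-06 in limma). After quantile normalization that mean was -0.34 and stayed called. FOXP2, a gene of speech circuits, had 1 probe at -2.26 (adjusted p = 0.000462 in limma over probes), which read 1.98, 2.40, 2.04 and 2.48 on mock arrays and -0.46, -0.55, 0.75 and 0.12 on arrays labelled CFC1. Its other probes, at -0.26 and -0.40, were not called, and the call of the gene mean of -0.97 was lost with the median of the probes (-0.64, adjusted p = 0.116). FOXP4 had probes at -0.62 and 0.23, of which the first was called. Its mean of -0.20 lost the call under 3 scalings (-0.04 after quantile normalization, adjusted p = 0.674) and when mock array 1 or 2, or array 3 or 4 labelled CFC1, was left out (-0.19 to -0.16). FOXP3, the regulatory T cell factor, averaged -0.56 (adjusted p = 0.0314 in limma). Its mock arrays lay between -0.10 and 0.78 and the others between -0.43 and -0.14, without overlap. Its 3 probes stood at -1.001, -0.51 and -0.15 with adjusted p-values from 0.142 to 0.454 in limma over probes. The probe at -1.001 read 2.67 on mock array 2 and -0.37, 0.04 and 0.07 on mock arrays 1, 3 and 4. Without mock array 2 the gene mean shrank to -0.377 and stayed called. Leaving out mock array 1, or array 1, 2 or 3 labelled CFC1, ended the call of FOXP3 (-0.58 to -0.52), as did arrays set to E1A control spots (-0.48, adjusted p = 0.0624), unmoderated variances (adjusted p = 0.0532) and the fit over all probes. Of 12 FOXP partners and targets, 5 rose and 3 fell, with the receptor MET at 2.42 and the adhesion molecule CNTNAP2 at -0.86.

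Of the FOXO genes, FOXO1 and FOXO3 fell. These factors drive stress resistance, cell cycle arrest and metabolic genes until AKT sends them out of the nucleus. FOXO1 read -0.04, -0.07, -0.06 and 0.00 on mock arrays and -1.39, -1.11, -1.22 and -1.16 on arrays labelled CFC1. Unlike the mesenchymal genes, its mock arrays sat at the baseline and the other group below it. The difference was -1.18 (SE 0.062, adjusted p = 1.51e-06 in limma) and -1.94 after quantile normalization. FOXO3 read 0.13, 0.08, 0.14 and 0.15 on mock arrays and -0.66, -0.59, -0.48 and -0.57 on arrays labelled CFC1. Its groups did not overlap, its 3 probes ran from -0.78 to -0.54, and the difference was -0.70 (SE 0.044, adjusted p = 4.2e-06 in limma). FOXO4 stood at -0.13 (95% interval -0.58 to 0.31) and FOXO6 at 0.03 (-0.18 to 0.24), both without a call. The FOXO6 mean joins a probe that rose by 0.24 (SE 0.060, adjusted p = 0.013 in limma over probes), with groups that did not overlap, and one at -0.18 (adjusted p = 0.492).

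The genes around the FOXO factors did not move one way. Of 20 listed FOXO targets, 8 rose and 7 fell, with a median of 0.04. The transcription factors BCL6 and KLF2 rose by 2.68 and 2.33, and INSR, the insulin receptor, and CCNG2, a cyclin of arrested cells, fell by 1.75 and 1.73. Of 18 measured FOXO regulators, 8 rose and 4 fell. The kinases SGK1, SGK3 and SGK2, which phosphorylate FOXO proteins, rose by 4.86, 1.72 and 1.54. MDM2, a ubiquitin ligase, fell by 1.92.

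FOXN3 and FOXN4 fell by at least 1 log2 unit. FOXN3, a checkpoint repressor, read 1.37, 1.36, 1.41 and 1.37 on mock arrays and 0.07, 0.05, 0.07 and 0.02 on arrays labelled CFC1. Its 2 probes were close, at -1.39 and -1.27, and the mean difference was -1.33 (SE 0.030, adjusted p = 1.87e-08 in limma). FOXN4, a factor of retinal and spinal interneurons, read 1.04, 1.12, 1.08 and 1.07 on mock arrays and 0.08, 0.07, 0.00 and 0.01 on arrays labelled CFC1. The groups were again narrow and apart, with a difference of -1.04 (SE 0.035, adjusted p = 1.47e-07 in limma). After quantile normalization FOXN4 stood at -0.67 and FOXN3 at -0.89, both called. FOXN3-AS1, an antisense transcript, fell by 0.93 and FOXN3-AS2 stood at 0.04 without a call. Whether these probes read strand is not stated, so sense and antisense RNA may not be told apart. FOXN1, the thymic epithelium factor, stood at 0.49 (adjusted p = 0.0357 in limma), a call lost after quantile normalization (0.48, adjusted p = 0.0913) and when mock array 1, 3 or 4, or array 1, 2 or 4 labelled CFC1, was left out (0.382 to 0.51). Unmoderated variances (adjusted p = 0.0589) and the fit over all probes (adjusted p = 0.0505) ended the call of FOXN1 too. FOXN2, a close relative of FOXN3, was not called (0.10, adjusted p = 0.133 in limma). One of its probes rose by 0.17 (adjusted p = 0.0453 in limma over probes) without overlap, and the other stood at 0.03 (adjusted p = 0.734). FOXN2 was called with arrays set to E1A control spots and in the fit over all probes.

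In the FOXD subfamily 4 genes fell and FOXD3 rose. FOXD3 keeps neural crest cells undifferentiated. It read -0.58, -0.34, -0.32 and -0.33 on mock arrays and 0.07, 0.00, -0.07 and -0.01 on arrays labelled CFC1. Mock array 1 was the lowest, the groups did not overlap, and the difference was 0.39 (SE 0.068, adjusted p = 0.00144 in limma). FOXD2 read 0.79, 0.58, 0.99 and 1.19 on mock arrays and -0.06, -0.45, -0.39 and -0.18 on arrays labelled CFC1. All mock arrays were higher, with a difference of -1.16 (SE 0.148, adjusted p = 0.000253 in limma). FOXD2-AS1, its antisense neighbour, read 2.98, 3.05, 2.95 and 2.90 on mock arrays and 0.24, 0.20, 0.89 and -0.45 on arrays labelled CFC1, a difference of -2.75 (SE 0.252). That fall was larger than the fall of FOXD2, although values of different probes share no scale of level. FOXE3, a lens factor on the other side of FOXD2-AS1, was not called (-0.39, adjusted p = 0.128 in limma), though it was without CFC1 replicate 2 (-0.53, adjusted p = 0.0335).

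The other FOXD genes moved less or less surely. FOXD4 fell by 0.68 (SE 0.040, adjusted p = 2.74e-06 in limma), or by 0.37 after quantile normalization. FOXD4L5, a near-identical copy of FOXD4 among several, stood at -1.33 (SE 0.388, adjusted p = 0.0196 in limma) with groups that overlapped. That call was lost without CFC1 replicate 3 (-1.23, adjusted p = 0.0529) or 4 (-1.21, adjusted p = 0.0535), and probes of such copies may read each other. FOXD1, a kidney stroma factor, stood at -0.10 (adjusted p = 0.0246 in limma) and at 0.05 after quantile normalization (adjusted p = 0.407). The call was also lost under other centrings and when mock array 1 or 4, or array 1, 2 or 4 labelled CFC1, was left out (-0.103 to -0.084). Of 17 measured neural crest partners of FOXD3, 5 rose and 7 fell, with a median of -0.03. MSX1, a border factor, and SOX8 rose by 4.34 and 3.60, and TFAP2B and ZIC2, factors of crest and sympathetic precursors, fell by 3.86 and 2.83. Of 7 Schwann and glial markers, 5 fell (71.4% against 28.2% of all genes) and the others were not called. NGFR, a neurotrophin receptor, stood at -1.79 and SOX10, a defining gene of the lineage, at -0.88.

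FOXM1 rose. This factor switches on the genes of G2 and mitosis. It read -0.51, -0.51, -0.43 and -0.52 on mock arrays and -0.06, 0.03, 0.01 and 0.04 on arrays labelled CFC1. The groups were narrow and apart, and the difference was 0.50 (SE 0.038, 95% interval 0.41 to 0.59, adjusted p = 1.19e-05 in limma). Of 20 FOXM1 targets, 9 rose and 5 fell, none by 1 log2 unit, with a median of 0.11. CCNB1, the mitotic cyclin, and UBE2C, a ubiquitin-conjugating enzyme of mitosis, rose by 0.82 and 0.65. BUB1B, a spindle checkpoint kinase, and TOP2A, topoisomerase II, fell by 0.78 and 0.65. After quantile normalization 10 targets rose and 2 fell, and with arrays centred on the median 9 rose and 3 fell.

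FOXH1, the factor nearest to CFC1 in the pathway, was not called. It read -0.08, 0.25, -0.15 and -0.25 on mock arrays and 0.45, 0.31, 0.00 and 0.33 on arrays labelled CFC1. Mock array 2 lay among the second group, so the groups overlapped. The difference was 0.33 (SE 0.134, adjusted p = 0.0703 in limma), and its unadjusted 95% interval ran from 0.02 to 0.65. It was called without mock replicate 2 (0.43, adjusted p = 0.0155), without CFC1 replicate 3 (0.42, adjusted p = 0.0256) and after quantile normalization (0.55, adjusted p = 0.0167). Of 15 measured FOXH1 partners and Nodal targets, 4 rose and 6 fell, with a median of -0.33. The SMAD proteins that bind FOXH1 differed: SMAD3 rose by 1.22, and SMAD2 fell by 1.03. The type II receptor ACVR2A rose by 1.09, and CRIPTO, the relative of CFC1, fell by 1.16.

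The FOXJ genes that are broadly expressed rose. FOXJ2 lay between -1.09 and -0.96 on mock arrays and between -0.24 and 0.00 on arrays labelled CFC1, a rise of 0.90 (SE 0.069, adjusted p = 1.3e-05 in limma). FOXJ3 rose by 0.16 (adjusted p = 0.0172 in limma), by 0.30 after quantile normalization, and was not called with arrays centred on the median (0.21, adjusted p = 0.106). FOXJ1, the master regulator of motile cilia, was spread widely at 0.93, 0.18, 0.99 and -0.04 on mock arrays and -0.43, -0.65, 0.92 and -0.29 on arrays labelled CFC1. CFC1 array 3 lay among the mock arrays, and the difference of -0.63 was not called (adjusted p = 0.227 in limma). Without that array it was -0.97 with an adjusted p of 0.027. Of 20 cilia genes listed as FOXJ1 targets, 7 rose and 3 fell, with a median of -0.04. Thus 10 of 20 were called, against 57.9% of all genes, and 35.0% were higher against 29.7%. DNALI1, a dynein light chain, TPPP3, a tubulin-binding protein, and RSPH1, a radial spoke protein, rose by 4.19, 3.93 and 3.17, and RFX2, a factor that works with FOXJ1, by 2.01. Named after their values were seen, RSPH4A, another radial spoke protein, fell by 1.76, and CCDC40, an axoneme assembly factor, by 0.76.

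FOXA1, a pioneer factor of endoderm and hormone-responsive epithelia, again divided by probe. The first probe rose by 1.40 (SE 0.113, adjusted p = 2.87e-05 in limma over probes) and the second stood at 0.03 with a wide SE of 0.417. The gene mean of 0.71 was no longer called when replicate number was blocked (adjusted p = 0.097), with unmoderated variances (adjusted p = 0.0651) and when mock array 2 or 3, or any single array labelled CFC1, was left out (0.502 to 0.768). FOXA2 and FOXA3 were not called, at -0.12 and -0.20. Of 13 measured FOXA targets, 1 rose, SPDEF at 0.53, and 1 fell, the keratin KRT18 at -0.85. This was 15.4% called against 57.9% of all genes. The call of SPDEF was lost without any array other than CFC1 replicate 3 (0.387 to 0.591). Of 10 epithelial markers, 3 rose and 3 fell, with KRT19 at 2.84 and EPCAM at -2.86.

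The remaining members moved little or were scattered. FOXI2, of the inner ear and kidney subfamily, rose by 0.39 (SE 0.064, adjusted p = 0.00109 in limma), with mock arrays between -0.60 and -0.37 and arrays labelled CFC1 between -0.16 and 0.00. FOXI1 stood at 0.64 with arrays labelled CFC1 at -0.22, 1.03, -0.31 and 1.95, and FOXI3 at 0.12. FOXR1 stood at 0.92 (SE 0.567) and FOXR2, a factor that is activated in some neuroblastomas, at -0.15 (95% interval -0.45 to 0.15). FOXR2 read -0.11, -0.17, -0.26 and 0.23 on mock arrays and -0.16, -0.385, -0.35 and -0.02 on arrays labelled CFC1. PDX1, a list gene, ran alike, at -0.11, -0.21, -0.18 and 0.29, then -0.18, -0.41, -0.31 and 0.02. Whether genes with such a shared run were read at background was not tested, so a missing call need not mean no change. FOXB1 stood at 0.35, FOXB2 at -0.50 and FOXE1, the thyroid factor, at -0.10. FOXB2 was called without mock replicate 2 (-0.67, adjusted p = 0.00697), where it read -0.27 against 0.25 to 0.63 on the other mock arrays, without CFC1 replicate 4 (-0.60, adjusted p = 0.0443) and with array weights. Of 13 forebrain partners of FOX factors, 1 rose, LHX2 at 2.80, and 5 fell, led by the corepressor TLE1 at -2.47, the eye-field factor SIX3 at -2.25 and DLX1 at -1.17. LINC00261, next to FOXA2, and LINC01551 stood at -0.03 and -0.15, without a call. Of 9 endothelial markers 1 rose and 2 fell, and of 8 immune markers 1 rose and 1 fell. The immune marker that fell, CD68 (-0.42, adjusted p = 0.0363 in limma), lost its call under 11 of 18 alternatives.

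In all, the 17 uncalled forkhead genes ran from -0.63 to 0.92, with adjusted p-values from 0.0585 to 0.808 in limma. Their median SD over mock arrays was 0.227, against 0.062 for the 27 called genes and 0.113 for all genes. A call weighs the difference against this spread, so a lower SD among called genes is built into the calling. Among the called genes the mock mean lay farther from the baseline than the other mean in 23 of 27, 85.2% against 72.9% of all called genes. The 4 exceptions were FOXO1, FOXO3, FOXL2 and FOXP3. The baseline is unknown, so these distances do not show which group changed.

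**Figure D5:**
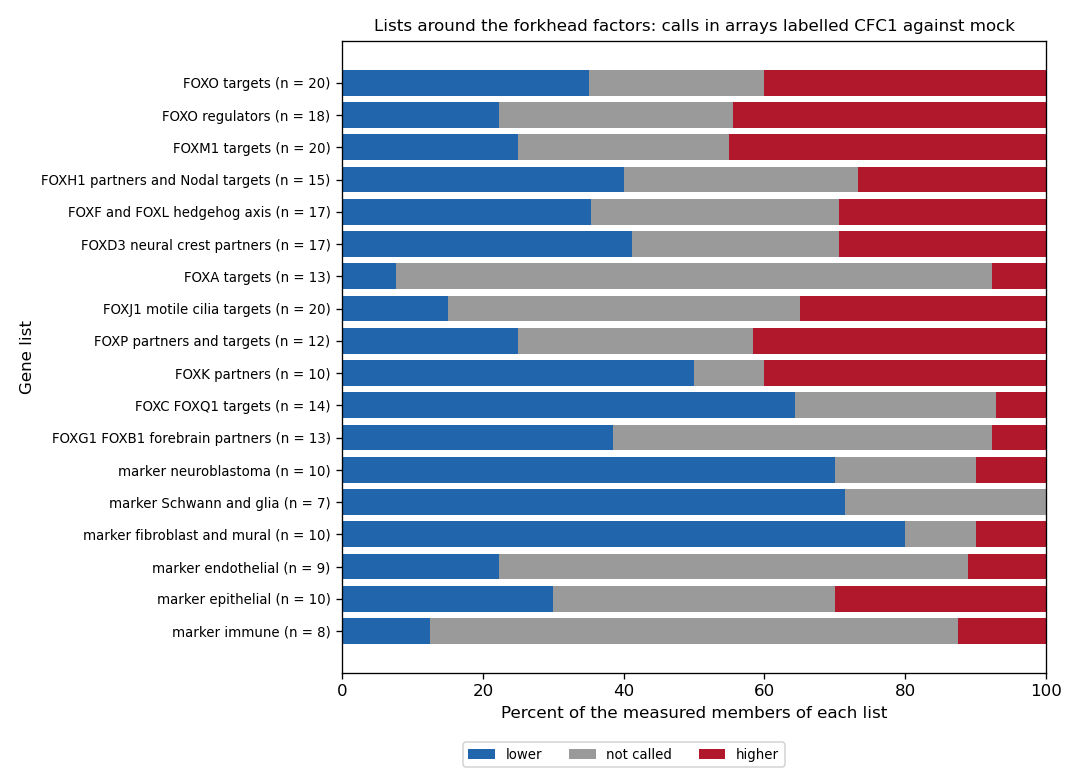
Percent of the measured members of each gene list (x axis) that fell, were not called or rose in arrays labelled CFC1 against mock arrays, for lists of forkhead targets, partners and cell type markers (y axis, n in brackets). Of the FOXC and FOXQ1 targets 9 of 14 fell, and of the FOXA targets 11 of 13 were not called.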

How the data were processed

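Total RNA of 8 NGP samples was labelled with Cyanine3 for one-colour Agilent arrays, per the labels' protocols. The authors deposited 50739 rows of log2 values, read as such from the values; how features were extracted and scaled, what the baseline is and which logarithm was taken is not given in the sources used here. Deposited values lie between -13.0 and 9.81, with array medians from -0.145 to 0.139. The number of arrays limits the precision.

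Control spots (140) were left out. Of 50599 probes, 31993 had 1 symbol in the platform annotation, 0 had several and 18606 stayed unnamed. Symbols were updated through the RefSeq table of GRCh38.p14 by accession (28423), symbol (3069) or synonym (479), and 22 were kept. Probes of a gene were averaged, giving 21524 genes.

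limma 3.58.1 in R 4.3.3 (lmFit, eBayes, 8 arrays, no block, two-sided) was run and tested on simulated data. The simulation changed a far smaller share of genes than was called here, with independent noise. It checks the code and does not bear on false calls in these data. Members, lists and the rule for named genes were chosen with earlier results of these data known. Values on each array are given for called members of at least 1 log2 unit with groups that did not overlap (at most 12 each way) and for FOXM1, FOXH1, FOXO1, FOXO3, FOXD3 and FOXK2. Up to 4 called genes per list and the listed noncoding neighbours are named, others by choice after their values were seen. Alternatives were a replicate block, quantile normalization, centring on medians or E1A control spots, array weights, a variance trend, unmoderated variances, probe medians, a fit over all probes (a gene counts as called where at least as many of its probes were called one way as were not), natural logarithms, and leaving out each array.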

Additional observations from a re-analysis of the deposited data

Results flagged for a closer look

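In 9 of 232 groups of 4 arrays examined for the named genes, 1 array stood apart from the other 3 by Dixon's criterion, which chance gives in about 1 of 20 groups. Among forkhead genes these were FOXD3, where mock replicate 1 read -0.58 against -0.34 to -0.32, and FOXM1, where mock replicate 3 read -0.43 against -0.52 to -0.51. Both genes kept their call when that array was left out. Among list genes, mock replicate 4 stood apart for COL3A1 (2.17 against 2.04 to 2.06) and DNALI1 (-5.16 against -4.12 to -4.04), mock replicate 1 for NGFR (1.86 against 1.82) and mock replicate 2 for UBE2C (-0.73 against -0.66 to -0.65). Of the arrays labelled CFC1, replicate 4 stood apart for SIN3A (0.053 against 0.00), replicate 2 for SRF (0.193 against 0.00 to 0.03) and replicate 1 for TGFBR2 (1.06 against -0.29 to -0.10).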

How the results depend on the processing

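Of the 27 called forkhead genes, 17 kept call and direction under all 18 alternatives, and 10 of the 17 uncalled genes stayed uncalled. Among these alternatives, natural logarithms only rescale the values and cannot change a call. FOXL2 counts as kept in the fit over all probes through 1 of its 2 probes. The counts of called forkhead genes and probes and of all called genes stayed within 1.5 times: without 1 array, 6 to 8 forkhead genes rose, 15 to 18 fell and 28 to 33 probes were called, with 12007 to 12198 genes called in all. Counts over short lists moved more. Falls went from 5 to 2 (quantile normalization) and 3 (median centring) among FOXM1 targets, and from 5 to 2, 2 and 3 (E1A spots) among FOXK partners. The single rise among FOXA targets was lost under 10 alternatives, and the single fall among immune markers likewise under 10. Rises among FOXC and FOXQ1 targets and forebrain partners reached 2, falls among FOXA targets 3 and among endothelial markers 4, and rises among epithelial markers went from 3 to 1 without mock replicate 3. FOXD1 changed sign after quantile normalization (0.054) and FOXK2 with the median of its probes (0.269), because its probes differ in sign. The call of CFC1 (-0.796) was lost when replicate number entered as a block (-0.796, adjusted p = 0.0761), when variances were unmoderated (-0.796, 0.0662), when all probes were fitted (-0.796, 0.0546), after quantile normalization (-0.736, 0.0678), with arrays centred on the median (-0.754, 0.0582) and with E1A control spots (-0.719, 0.0722). Leaving out mock array 1 or 2, or array 2, 3 or 4 labelled CFC1, also ended it; over single left-out arrays the difference ran from -0.944 to -0.568, and the cause was not tested. Deviations of same-numbered arrays correlated at 0.138, 0.199, 0.0741 and 0.19, and each array correlated best with its own number, a hint from the data and not the design. With the replicate block, 7 forkhead genes rose and 21 fell, and 13200 of all genes were called. The block ended the calls of FOXA1 (adjusted p = 0.097) and FOXK1 (0.0566) and added FOXB2, FOXE3 and FOXR2.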
